A study of Saccharomyces cerevisiae with 3 samples.

Results

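Genes through which budding yeast takes up iron and copper were followed in a strain short of HAL3 and VHS3 and in its wild type. The set holds 10 of 6212 genes listed for the arrays, namely FRE1 (YLR214W), CTR1 (YPR124W), FET3 (YMR058W), FTR1 (YER145C), FIT1 (YDR534C), FIT2 (YOR382W), FIT3 (YOR383C), ARN1 (YHL040C), ARN2 (YHL047C) and SIT1 (YEL065W). The genes were chosen by their systematic identifiers and their known roles, with the ratios of this same comparison already in view, so their values are given as a description without a test. RNA from both strains was compared on 3 spotted 2-colour DNA arrays, each carrying mutant and wild type together. The mutant, tetO:HAL3 vhs3::URA3, has VHS3 replaced by the URA3 marker and HAL3 behind a tetO promoter, which doxycycline shuts off. The control was the wild type of the same JA100 genetic background. Both strains had 15 h in synthetic complete medium at 28 °C with 100 µg/ml doxycycline, so the drug is common to both groups. The labels name 2 biological replicates, and replicate 1 fills 2 arrays that differ in which strain carried which dye, here called the exchanged pair, while replicate 2 fills 1 array with the mutant in Cy5. The comparison asks how transcript levels differ when VHS3 is deleted and HAL3 repressed.

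Yeast takes up iron by reduction at the cell surface, followed by the oxidase Fet3 and the permease Ftr1, and separately as iron bound to siderophores, small chelators made by other microbes. Fet3 is a multicopper enzyme, so high-affinity iron uptake needs copper, which the reductase Fre1 and the transporter Ctr1 bring in. The factor Aft1 activates most iron uptake genes when iron is low, Mac1 activates CTR1, FRE1 and a few other genes when copper is low, and Cup2 (also called Ace1) activates the metallothionein genes when copper is high. Hal3 and Vhs3 inhibit the phosphatase Ppz1 and take part in coenzyme A synthesis.

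Values are log2 ratios of mutant over wild type with the median of each array set to 0. Each array held a ratio for 4728 to 4894 genes, and the SD over genes was 0.65 and 0.70 for replicate 1, against 0.35 for the array labelled replicate 2. The sources used here do not state outright which strain is the numerator. The sample titles write wild type before mutant where the mutant was in Cy5, and mutant before wild type where it was in Cy3. Read as ratios, the titles of the arrays with the mutant in Cy5 would put wild type on top. The dyes do not settle the direction, since the ratios of the exchanged pair were deposited in the same direction. Mutant over wild type is the likely reading, from VHS3 and HAL3 alone, which lay at −2.28 and −1.31 in replicate 1. On the array labelled replicate 2 the deleted gene VHS3 was at 0.09 and HAL3 at −0.14, so that array goes against its label. It is called the array labelled replicate 2, or the third array, and its value is printed beside those of replicate 1 for each uptake gene. URA3, the marker that the mutant carries, was at −1.11 in replicate 1 and at −0.33 on the third array. Under the reading taken here it was thus lower in the mutant, which goes against that reading, and the URA3 allele of the wild type is not stated in the labels.

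The means ± SD with n = 2 and the limma test join the third array with replicate 1, as the labels have it. Joined in this way VHS3 had a mean of −1.09 ± 1.68 (SD, n = 2) and a limma unadjusted p of 0.081, so the deleted gene itself did not pass. In that fit 0 of 4598 genes (0.00%) were past a Benjamini-Hochberg adjusted p of 0.05 and 222 (4.83%) were at an unadjusted p below 0.05. The count of 0 therefore does not show that transcript levels were alike, and replicate 1 alone allows no test. Ratios from whole cultures do not tell apart fewer cells with a transcript from less transcript per cell.

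FRE1 and CTR1, which serve copper entry, had the highest ratios of the 10 genes in replicate 1. FRE1 encodes the main surface reductase for ferric and cupric ions and is known to respond to both Aft1 and Mac1. Its log2 ratio was 1.69 with the mutant in Cy5, 1.90 with the mutant in Cy3 and 0.0070 on the array labelled replicate 2. Both arrays of replicate 1 were thus high, at 3.46-fold in their average, and the third array lay at the median of its genes. CTR1 encodes the high-affinity copper transporter of the plasma membrane. It stood at 1.14 and 1.16 on the exchanged pair and at 0.06 on the array labelled replicate 2, again high on the exchanged pair and close to 0 on the remaining array. The average of replicate 1 was 2.22-fold. The arrays of that pair differed by 0.02 in size for CTR1 and by 0.21 for FRE1, against a median absolute difference of 0.47 over all genes. Joined with the third array, on which VHS3 was not low, the means were 0.90 ± 1.26 for FRE1 and 0.60 ± 0.77 for CTR1 (SD, n = 2), each smaller than its SD.

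**Figure D1:**
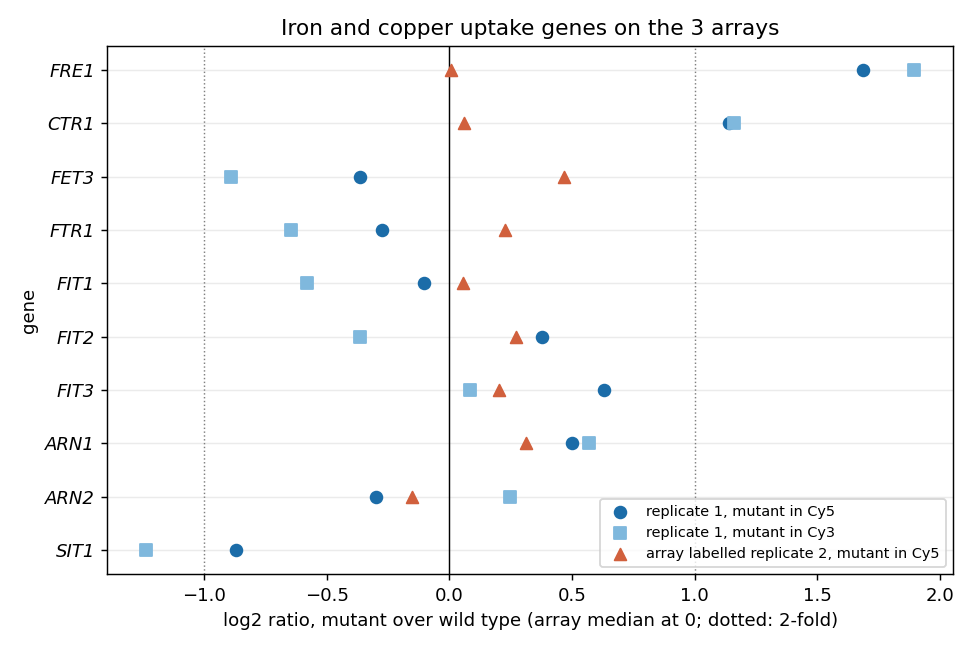
Log2 ratio of mutant over wild type (x axis, array median at 0) for the 10 uptake genes (y axis), with 1 point per array and dotted lines at 2-fold. FRE1 and CTR1 lie beyond 2-fold on both arrays of replicate 1 and at 0.0070 and 0.06 on the array labelled replicate 2, and SIT1 has no point for the latter.

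FET3 and FTR1, the oxidase and permease that work as 1 complex, were below 0 in replicate 1. FET3 was at −0.37 and −0.89 on the exchanged pair and at 0.47 on the array labelled replicate 2. FTR1 was at −0.28 and −0.65 on the pair and at 0.23 on the third array. Both genes were therefore below 0 on the arrays of replicate 1 and above 0 on the other, with FET3 farther from 0 than its partner on each of the 3 arrays. On the array labelled replicate 2, FET3 ranked at percentile 97.9 of the genes measured there and FTR1 at 84.0, although the ratio of FET3 was only 1.38-fold. The means over replicates were −0.08 ± 0.77 and −0.12 ± 0.49 (SD, n = 2). The distance between the profiles of FET3 and FTR1 over the 3 arrays was 0.35, the second smallest of any pair among the 9 genes with 3 values, after FTR1 and FIT1 at 0.25.

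The FIT genes, which encode cell wall mannoproteins that help retain siderophore-bound iron, lay between −0.34 and 0.36 in the average of replicate 1. FIT1 was at −0.10 and −0.58 on the pair and at 0.05 on the array labelled replicate 2. FIT2 was at 0.38 and −0.36 on the pair and at 0.27 on the third array, so its sign turned with the dye. FIT3 was at 0.63 and 0.08 on the pair and at 0.20 on the third array, above 0 on all 3. For all 3 FIT genes the array with the mutant in Cy5 gave the higher value of the pair, by 0.48, 0.74 and 0.55. That average was −0.34 for FIT1, 0.0074 for FIT2 and 0.36 for FIT3.

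FIT2 and FIT3 adjoin each other on chromosome XV, and genes of related function lie beside them. FRE3, the nearest gene listed on one side and a siderophore-iron reductase, was blank on all 3 arrays, and FRE5, on the other side, was at −0.30 and −0.07 in replicate 1 and blank on the third array. YOR385W, the locus after FRE5, was at 1.60 and 2.02 on the pair and at −0.30 on the array labelled replicate 2. RDR1, a regulator of drug resistance, was at −0.38 and −0.90 on the pair and blank on the third array, and PHR1, a DNA photolyase, was at −0.66, 0.04 and −0.42. The loci around FIT2 and FIT3 thus had ratios on both sides of 0. FIT2 and FIT3 have similar sequences, so their spots may share some signal.

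**Figure D2:**
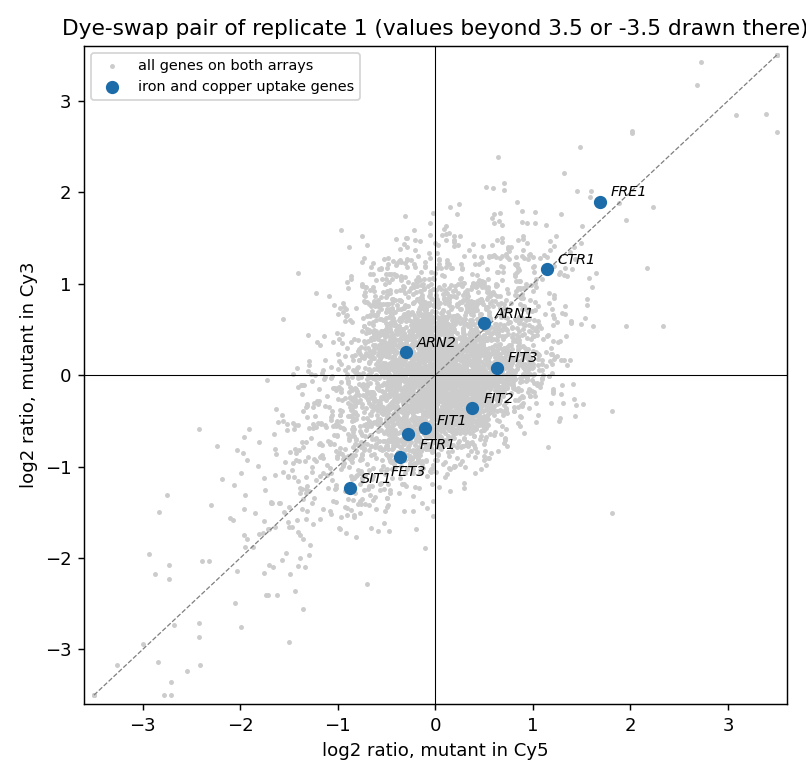
Log2 ratios of replicate 1 with the mutant in Cy5 (x axis) and in Cy3 (y axis), all genes in grey and the 10 uptake genes in blue, with a dashed line of equality. FRE1, CTR1 and ARN1 lie close to the line above 0, SIT1 lies below 0 on both arrays, and FIT2 and ARN2 change sign with the dye.

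The siderophore carriers differed among themselves, with ARN1 above 0, ARN2 near 0 and SIT1 below it. ARN1, which takes up iron bound to ferrichromes, was at 0.50 and 0.57 on the exchanged pair and at 0.31 on the array labelled replicate 2. Its 3 values were alike and above 0, with a mean of 0.42 ± 0.16 (SD, n = 2). The mean of FIT3 was 0.28 ± 0.11 (SD, n = 2), although its values on the pair differed by 0.55. ARN2, a carrier of iron bound to triacetylfusarinine C, was at −0.30 and 0.25 on the pair and at −0.15 on the third array, close to 0 with a sign that turned with the dye. SIT1, the carrier of ferrioxamine B, was at −0.87 and −1.24 on the pair, and it was blank on the array labelled replicate 2. In replicate 1 it was 2.08-fold lower in the mutant, the lowest of the 10 genes, and no second replicate stands beside it. These carriers belong to 1 sequence family, so cross-binding between their spots is possible.

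ARN1 and ARN2 lie near one end of chromosome VIII, where the median gene was at 0.07 in replicate 1, and at −0.09 on the array labelled replicate 2. ARN1 was above both medians. Beside it, EFM1, a methyltransferase gene, was at 0.45, 0.25 and 0.21, and CBP2, needed for splicing a mitochondrial intron, was at −0.20, −0.32 and 0.26. On the other side YHL041W had a value on the array labelled replicate 2 alone, −2.20, while YHL042W and ECM34 were blank on all 3. YHL037C, the third locus on the first side, was at 1.29 with the mutant in Cy5, blank with the mutant in Cy3 and at −1.28 on the third array. Around ARN2, COS8 was at −0.10, 0.08 and −0.10 and YHL049C at −0.07, 0.08 and −0.92. PXP3 was at −0.89, −0.71 and 0.05, PAU13 had −0.50 on the array labelled replicate 2 alone, and DFP4 was blank. Neighbours of both carriers therefore ran in both directions, and their part in the ratios of ARN1 and ARN2 was not tested.

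As a set, the 10 genes did not lie on 1 side of 0. Their median was 0.14 on the array of replicate 1 with the mutant in Cy5 and −0.14 on that with the mutant in Cy3, and −0.0088 in the average of the pair, against 0.02 over the 5170 genes with a value in replicate 1. The range in replicate 1 ran from −1.05 (SIT1) to 1.79 (FRE1). On the array labelled replicate 2 the median of the 9 genes measured was 0.20, with a range from −0.15 (ARN2) to 0.47 (FET3), and 8 of the 9 were above 0, against 2360 of 4728 genes. Ratios of at least 2-fold on both arrays of replicate 1 were seen for 2 of the 10 genes in the upward direction, FRE1 and CTR1, where 1.21% of all genes were, and for 0 in the downward direction, where 2.62% were. SIT1 was the 1 gene at least 2-fold lower in the average of replicate 1, where 4.20% of genes were. On the array labelled replicate 2, 0 of 9 differed 2-fold in either direction, against 2.73% of genes. Above 0 on all 3 arrays were FRE1, CTR1, FIT3 and ARN1, 4 of the 9 genes with 3 values (14.5% of all such genes), and 0 were below 0 on all 3 (15.9%). The genes were chosen with these ratios known, so nothing is read from these shares.

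**Figure D3:**
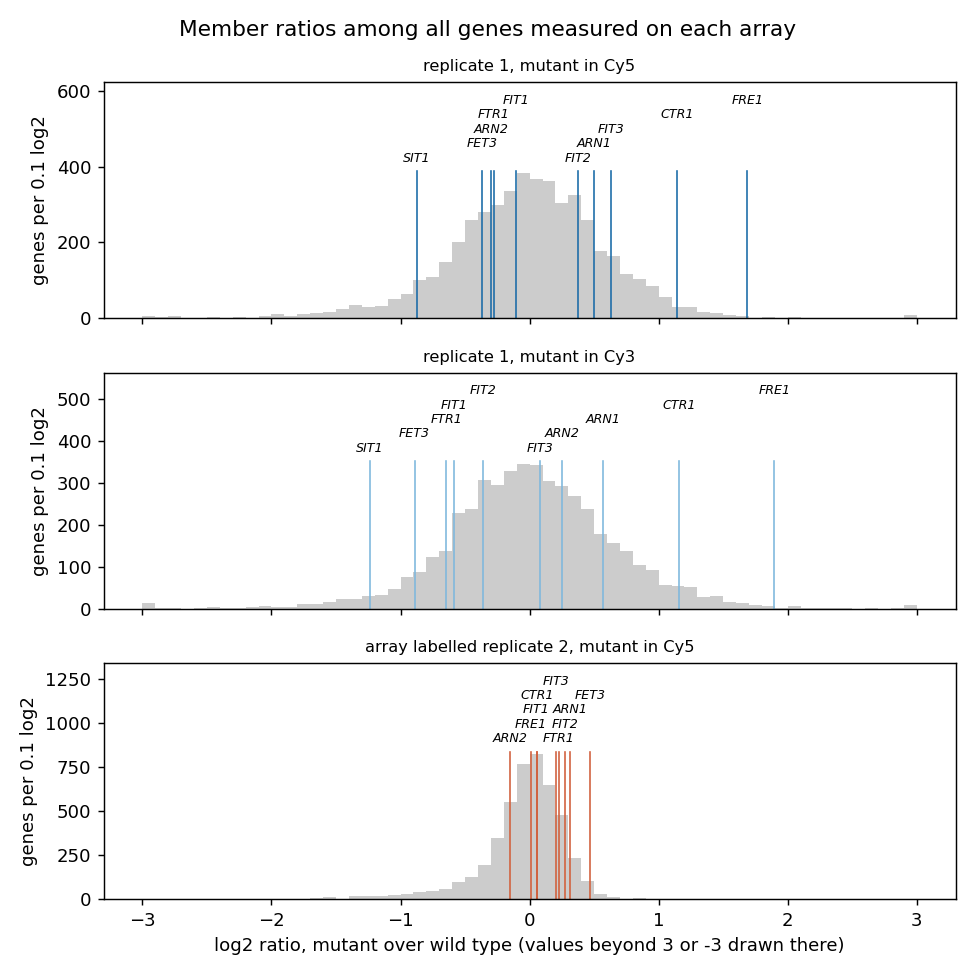
Histograms of all log2 ratios on each array (genes per bin of 0.1) with a vertical line for each uptake gene. In replicate 1 FRE1 and CTR1 stand in the upper tail and SIT1 in the lower part, while on the array labelled replicate 2 all 9 lines lie between −0.15 and 0.47.

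The gap between replicates exceeded that between dyes for FRE1, CTR1, FET3, FTR1 and ARN1. Replicate 1 minus the array labelled replicate 2 was 1.79 for FRE1, 1.09 for CTR1 and −1.10 for FET3, and these were the 3 genes with a gap over 1, a size that 426 of 4598 genes reached. For FTR1 the gap was −0.69. It was between −0.40 and 0.22 for the other 5 genes. The median absolute gap was 0.40 over the 9 genes and 0.34 over all genes, and the median absolute difference within the exchanged pair was 0.43 and 0.47.

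Other iron and copper genes in 7 lists, 61 in all and 44 with a value in both replicates, were set beside the uptake genes. In limma 0 of the 44 were past the adjusted threshold in either direction, and at an unadjusted p below 0.05 there were 2, CUP1-1 and CUP1-2, a share near the 4.83% of all genes. At least 2-fold different in the same direction in both replicates were 0 of the 44, where 0.413% of all genes were. Of the 46 with values on the exchanged pair, 23 were below 0 on both arrays and 10 above 0 on both, against 1293 and 1265 of 4546 genes overall. Among other reductases (7 genes, 3 in both replicates) FRE2, another reductase induced in low iron, had the highest mean at 0.10 ± 0.26 and FRE8 the lowest at 0.0020 ± 0.13 (SD, n = 2). Among other carriers (12 genes, 10 in both) CTR3, the second high-affinity copper transporter, was highest at 1.76 ± 2.51 and MRS4, an iron carrier of the mitochondrial inner membrane, lowest at −0.50 ± 0.86 (SD, n = 2). MRS4 was at −0.85 and −1.36 on the pair and at 0.11 on the array labelled replicate 2. The median of this list was −0.14 in replicate 1, and −0.06 on the third array. Copper delivery and buffering genes (9, with 6 in both) had medians of −0.55 and −0.02. Their highest mean was that of ATX1, a copper chaperone, at 0.18 ± 0.29, with a blank on the array that had the mutant in Cy3, and their lowest that of CUP1-2 at −0.73 ± 0.53 (SD, n = 2).

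In the iron-sparing list (5 genes, 2 in both replicates) all 4 measured genes were below 0 on both arrays of replicate 1. HMX1, a heme oxygenase that frees iron from heme, was at −1.76 and −2.17 on the pair, 3.90-fold lower in the mutant, and at 0.33 on the array labelled replicate 2. VHT1, the biotin transporter, was at −0.58, −0.12 and 0.38 in the same order. TIS11, whose product promotes decay of messages for iron-using proteins, was at −0.52 and −0.25 and blank on the third array. Iron-sulphur cluster assembly genes (8, with 6 in both) had medians of −0.02 and 0.20, and their means ran from −0.20 ± 0.36 for the scaffold gene ISU1 to 0.20 ± 0.30 for the glutaredoxin gene GRX5 (SD, n = 2). Iron-using enzymes (11, all in both) had medians of −0.12 and 0.0042. Their extremes were SDH2, the iron-sulphur subunit of succinate dehydrogenase, at 0.22 ± 0.017, and LEU1, an iron-sulphur enzyme of leucine synthesis, at −1.19 ± 1.82 (SD, n = 2). LEU1 was at −2.73 and −2.23 on the pair and at 0.09 on the third array.

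**Figure D4:**
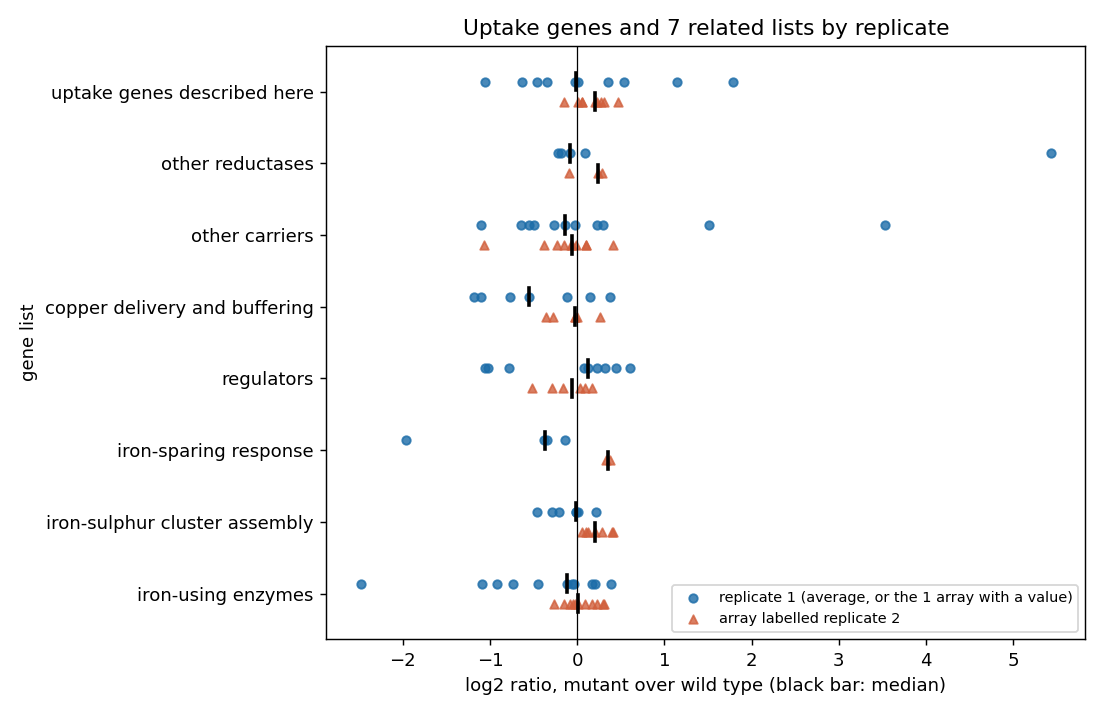
Log2 ratios (x axis) of the uptake genes and of 7 related lists (y axis) by replicate, in blue for replicate 1 and in orange for the array labelled replicate 2, 1 point per gene and a black bar at the median. Medians in replicate 1 lie between −0.55 (copper delivery and buffering) and 0.12 (regulators), while single genes reach −2.48 (LEU1) and 5.44 (FRE7).

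The genes for the regulators lay on both sides of 0 in replicate 1, and several differed between the arrays of the exchanged pair. MAC1 was at 0.73 and 0.16 on the exchanged pair and at −0.16 on the array labelled replicate 2, so it was above 0 in replicate 1 with a dye difference of 0.57. CUP2 had a value, 0.12, on the array of replicate 1 with the mutant in Cy5 alone. AFT1 was at −1.45 and −0.59 on the pair and blank on the third array, 2.03-fold lower in the average of replicate 1. AFT2, its close relative, was at 0.27, 0.18 and 0.09. Among the 9 regulators GRX3, a glutaredoxin that restrains Aft1, had the highest mean at 0.18 ± 0.20 and FRA1, which acts with it, the lowest at −0.30 ± 0.67 (SD, n = 2). FRA1 was at −1.07 and −0.49 on the pair and at 0.17 on the third array. GRX4, the paralog of GRX3, was at 1.20 with the mutant in Cy5, at 0.02 with the mutant in Cy3 and at −0.29 on the third array, so its high value was seen with 1 dye only.

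Copper-responsive genes divided by their known regulator in replicate 1. This grouping was made after the values were seen and carries no test. Beside CTR1 and FRE1, the known Mac1 targets with a value were CTR3, FRE7 and IRC7. CTR3 was at 3.53 on the array with the mutant in Cy3, blank with the mutant in Cy5 and at −0.01 on the array labelled replicate 2. FRE7, a reductase gene induced in low copper, was at 5.44 on the array with the mutant in Cy3, its 1 value. IRC7, a β-lyase gene, was at 2.01 and 2.65 on the pair and at −0.06 on the third array. REE1 was blank on all 3. All 5 measured Mac1 targets were at least 2-fold higher in replicate 1, where 3.15% of all genes were. CTR3 and FRE7 enter that count through 1 array each, and CTR1 and FRE1 were chosen with these ratios known. Only 3, CTR1, FRE1 and IRC7, had values on both arrays of the pair, and all 3 were at least 2-fold higher on both (1.21% of all genes). Nothing is read from these shares. The 4 measured on the array labelled replicate 2 lay between −0.06 and 0.06 there.

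The measured genes that Cup2 activates lay on the other side of 0. CUP1-1 and CUP1-2 encode the metallothionein that binds excess copper. CUP1-1 was at −1.22 and −1.15 on the pair and at −0.28 on the array labelled replicate 2, and CUP1-2 at −1.11, −1.10 and −0.36. They are 2 copies of 1 sequence, so their spots are not independent. SOD1, the copper and zinc superoxide dismutase, was at −0.34 and −1.19 on the pair and at −0.0056 on the third array, and CRS5, a second metallothionein gene, was blank on all 3. All 3 measured genes were below 0 on all 3 arrays, where 15.9% of all genes with 3 values were. SOD1 counts among them with a value at about the median of the third array. Aft1 targets were grouped without FRE1, which was counted with the Mac1 targets although it responds to both factors. The median of the 8 among the uptake genes was −0.18 in replicate 1, and that of the 9 measured outside them was −0.39. With FRE1 included, 1 of the 18 measured Aft1 targets, FRE1 itself, was at least 2-fold higher in the average of replicate 1 (3.15% of all genes), and 3 (SIT1, MRS4 and HMX1) were at least 2-fold lower (4.20% of all genes). FET4, a low-affinity carrier of iron, copper and zinc that is not in these groups, was at 0.65 and 2.38 on the pair and at −0.38 on the third array.

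**Figure D5:**
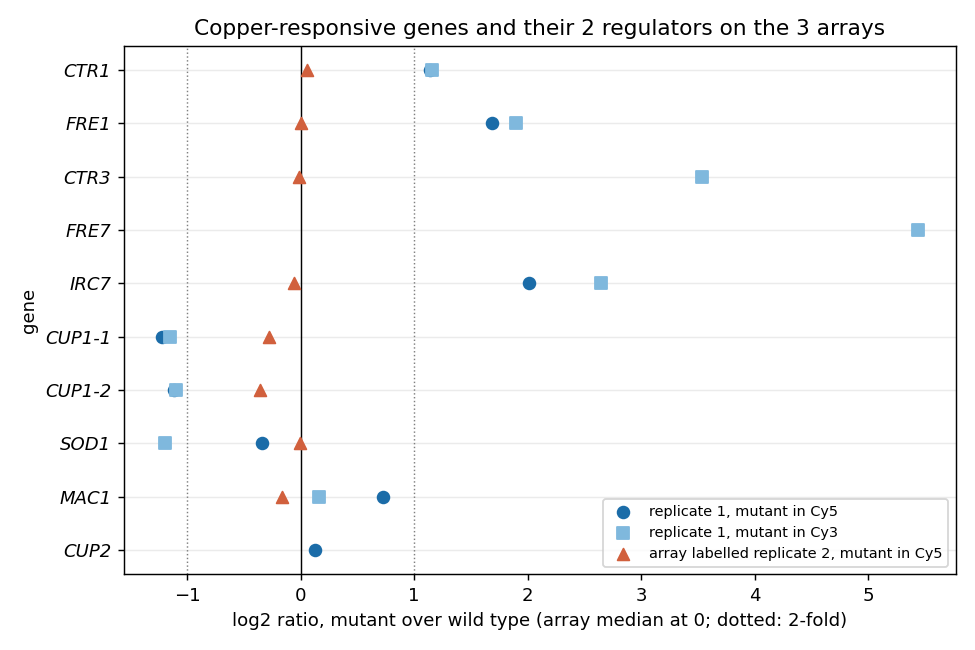
Log2 ratio of mutant over wild type (x axis, array median at 0) of measured Mac1 targets, Cup2 targets and both regulators (y axis), 1 point per array. In replicate 1 the 5 Mac1 targets lie above 1 and CUP1-1 and CUP1-2 below −1, while on the array labelled replicate 2 these genes lie between −0.36 and 0.06.

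The genes nearest to the median profile of the uptake genes (0.38, 0.08 and 0.20) were AZR1, SED5, YCLX02C, SMP1 and YLR349W. Likeness was the Euclidean distance over the 3 arrays among 4249 other genes, and it ran from 0.02 for AZR1 to 0.08 for YLR349W. AZR1, a transporter gene of drug resistance, was at 0.38, 0.10 and 0.22. The profile is that of no single uptake gene, since these spread widely around it.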

How the data were processed

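RNA of both strains was labelled indirectly with Cy3 or Cy5 from an oligo(dT) primer, per the labels' protocols. The authors deposited 1 log2 ratio per gene and array. The sources used here do not state their scanner, background correction, spot filter, normalization or what a blank means, so distance from background is unknown. Read as log2, 100% of the deposited ratios below 2-fold fell on whole multiples of 0.001 within the table's rounding. With the opposite sign, or as natural or decimal logarithms, 9.37 to 21.0% did. Array medians were 0.02, 0.0072 and 0.05 before centring. Pearson's r within the exchanged pair was 0.51 over 4546 genes (Spearman's rho 0.29), so both arrays had been deposited in the same direction. Between the third array and those of the pair r was lower, at 0.16 with the mutant in Cy5 and 0.14 with the mutant in Cy3.

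Array medians were set to 0, the exchanged pair was averaged into replicate 1 (using 1 value where the other was blank), and blanks were left out. A two-sided limma test of the mean against 0 (version 3.58.1, R 4.3.3, lmFit and eBayes, 1 residual and 5.15 prior degrees of freedom, Benjamini-Hochberg over 4598 genes) was checked on simulated data. Each p-value sets the mean of these 2 replicates against a variance taken partly from their own spread and partly from all genes. Symbols came from a RefSeq table of assembly R64, which held all 74 genes of the lists.

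The members and lists were chosen with earlier results of these data known. By rule, the text names all members, the altered genes, AFT1, AFT2, MAC1 and CUP2, the highest and lowest mean of each list, 3 loci on each side of FIT2-FIT3, ARN1 and ARN2, and the 5 nearest profiles. FRE7, IRC7, REE1, CRS5, SOD1, CUP1-1, TIS11, GRX4 and FET4 were added after their values were seen. Promoter motifs were not analysed here. Alternatives changed the use of the exchanged pair, centring, spread, genes required and prior.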

Additional observations from a re-analysis of the deposited data

How the results depend on the processing

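Under the alternatives, 0 genes passed the adjusted threshold in limma without centring, with chromosome centring, with the mutant-in-Cy5 arrays only, with a dye coefficient, with genes on all 3 arrays or with a robust prior. Quantile normalization gave 12, equal spread of the arrays 4, and the 3 arrays fitted as if independent 17, the last counting the exchanged pair as 2 replicates. None of these genes was an uptake gene or in a related list. The median of the 9 uptake genes with both replicates was 0.14, and was 0.29 with quantile normalization, 0.33 with the mutant in Cy5 only and, without FRE1 and CTR1 (an alternative added after seeing the data), −0.081. Leaving out 1 replicate gave −0.0088 to 0.20, the lower end with SIT1 included. Of 54 values of single uptake genes under the other alternatives, 52 moved by less than the SD between replicates. Requiring genes on all 3 arrays could move none of them, since all 9 genes have 3 values. The SD is also wide where the replicates differ, at 1.26 for FRE1, so the count does not show that the values are stable. FIT3 and ARN2 moved by more with the mutant in Cy5 only, to 0.42 and −0.23. The mean of FET3 was 0.24 with quantile normalization and 0.18 with equal spread, and that of FTR1 0.03 and 0.03, above 0 where the reported means were below. FRE1 without replicate 1 was 0.0070 and CTR1 0.06. The medians of related lists moved by more than that SD in 8 of 42 values, 6 of them for other carriers, where the SD was smallest. The causes of these shifts were not tested. Each ratio already pairs mutant with wild type on its array, so no further pairing was used. Replicate 2 rests on 1 array, and signal over background is unknown.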
